A study of Mus musculus with 2 samples.

Results

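Cxcl12, a secreted chemokine, and the genes of its receptors Cxcr4 and Ackr3 were examined in the neural tube of the mouse embryo. The 3 genes were chosen by name, and all 3 were found among the 43346 genes of the deposited tables. The tissue came from B6NCrl embryos at embryonic day 11.5, described as healthy, with no genetic change or treatment named. Replicate 1 pooled 109 embryos and replicate 2 pooled 88, of both sexes, and these 2 libraries of total RNA formed the only group. No condition was therefore set against another, and the questions were how high the ligand and its receptors stood, which transcripts carried them and how far the pools lay apart. The labels give both pools the same donor record, and nothing names the dissection borders. Levels in TPM are length-corrected shares of all transcripts, and errors are the SD over the 2 libraries (n = 2).

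CXCL12 attracts or retains migrating cells that carry CXCR4, a receptor that signals through inhibitory G proteins. ACKR3, formerly called CXCR7, binds the same ligand but couples to arrestins rather than G proteins, and it removes CXCL12 from the surroundings of the cell. Around the embryonic spinal cord, CXCL12 of mesenchyme and meninges is known to act on the early course of ventral motor axons, and the same system acts on neural crest derivatives, on limb muscle precursors and on vessels. Alternative splicing gives CXCL12 several forms with a common chemokine part and different C-terminal ends.

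The forms of Cxcl12 differ in where the coding sequence ends, so the 3′ coding ends of the annotated transcripts are shown first. Cxcl12 (ENSMUSG00000061353.7) lies on the plus strand at chr6:117168535-117181367 of mm10. The coding sequences of Cxcl12-202, Cxcl12-203 and Cxcl12-201 hold 89, 93 and 119 codons without the stop, the lengths of the alpha, beta and gamma forms of mouse CXCL12. In the sequences below, read from the GENCODE M21 transcripts, the 30 lower-case bases are shared by the 3 transcripts from position 117173549 on. The capitals mark what each transcript adds up to and including its stop codon.
Cxcl12-202 (alpha): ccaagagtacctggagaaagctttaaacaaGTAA
Cxcl12-203 (beta): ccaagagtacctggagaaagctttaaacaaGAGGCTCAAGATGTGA
Cxcl12-201 (gamma): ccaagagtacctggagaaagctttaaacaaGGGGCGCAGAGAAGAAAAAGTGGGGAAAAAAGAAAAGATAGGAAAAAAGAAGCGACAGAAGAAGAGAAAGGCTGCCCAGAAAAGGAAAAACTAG

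The alpha transcript reads on from exon 3 into its stop codon. The beta transcript adds 4 codons from a distant exon 4. The gamma transcript adds 30 codons from an exon 4 that starts nearer to exon 3, and 17 of these 30 encode lysine or arginine. Basic residues of the gamma tail are known to bind heparan sulfate.

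The receptors are encoded on chromosome 1. Cxcr4 (ENSMUSG00000045382.6) lies on the minus strand at chr1:128588199-128592293 and Ackr3 (ENSMUSG00000044337.5) on the plus strand at chr1:90203980-90216751. Each has a coding sequence that lies mostly or wholly in a single exon, of 359 codons in Cxcr4-201 and 362 in Ackr3-201. The stretch around the aspartate, arginine and tyrosine codons at the inner end of the third membrane helix is shown because this motif is known to take part in G protein coupling, in which CXCR4 and the atypical receptor differ. The capitals mark these 3 codons, the first of which is codon 135 in Cxcr4-201 and codon 141 in Ackr3-201. The marked codons encode the same residues in both genes, so they do not show a difference between the receptors. In Cxcr4-201 the same 3 residues are encoded again from codon 189 on, and that copy is not shown.
Cxcr4 (chr1:128589497-128589529): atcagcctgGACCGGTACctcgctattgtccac
Ackr3 (chr1:90214232-90214264): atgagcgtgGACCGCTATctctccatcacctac

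No other annotated gene overlapped any of the 3 loci in GENCODE M21. Reads from an overlapping gene on the other strand were therefore not a concern for their counts, although the strand setting was not stated. Replicate 1 held 27638068 expected counts (estimated reads per gene) and replicate 2 held 29166901, spike-in RNAs included. Marker genes of several cell types were read at 1 TPM or more in both libraries, which 59.9% of protein-coding genes reached. Since every marker list passed in full, this does not test the tissue label. All 6 neural progenitor and all 6 neuron markers were at 1 TPM or more in both libraries, and so were all 8 meningeal and mesenchymal, 6 endothelial, 6 blood and macrophage and 6 skeletal muscle markers. RNA typical of cells around the neural tube was thus measured too, and the levels below do not assign a transcript to a cell type. In such bulk samples, fewer cells of a type and less RNA per cell cannot be told apart.

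The ligand was the most abundant of the 3 genes and the atypical receptor was well above the signalling one. Cxcl12 had 85.2 TPM in replicate 1, from 3896 counts, and 73.8 TPM in replicate 2, from 3562 counts. Its mean was 79.5 ± 8.09 TPM, so the libraries lay about 10.2% of the mean apart when expressed as an SD. The bounds that the authors deposited for the estimates were 79.7 to 85.4 TPM and 68.9 to 74.1 TPM, which did not overlap. Of 21474 protein-coding genes, 9.38% stood at the level of Cxcl12 or above.

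Ackr3 had 36.6 TPM (1851 counts) in replicate 1 and 36.4 TPM (1883 counts) in replicate 2, with a mean of 36.5 ± 0.141 TPM. Cxcr4 had 11.97 TPM (320 counts) in replicate 1 and 12.2 TPM (356 counts) in replicate 2, with a mean of 12.1 ± 0.163 TPM. The deposited bounds of the 2 libraries overlapped almost wholly for each receptor, at 33.9 to 37.4 and 33.6 to 37.2 TPM for Ackr3 and at 10.2 to 13.3 and 10.6 to 13.4 TPM for Cxcr4. Ackr3 stood among the highest 19.9% of protein-coding genes and Cxcr4 among the highest 37.9%. Counting error alone was 5.59% and 5.30% of the Cxcr4 count and 2.32% and 2.30% of the Ackr3 count, so the closeness of the replicate values exceeds what their counts could resolve.

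**Figure D1:**
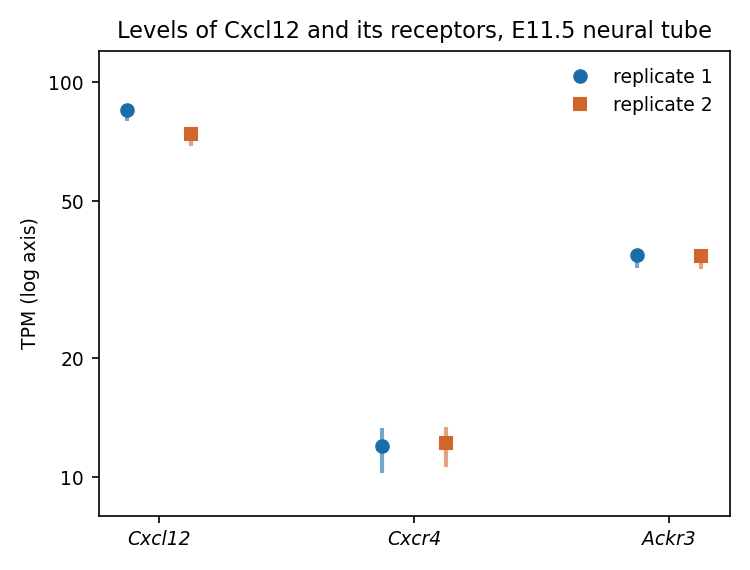
Level of Cxcl12, Cxcr4 and Ackr3 in TPM on a log axis in replicate 1 (circles) and replicate 2 (squares), with vertical lines from the lower to the upper bound deposited by the authors. Cxcl12 stood highest at 85.2 and 73.8 TPM, Ackr3 near 36.5 TPM and Cxcr4 near 12.1 TPM, and no level of 1 gene overlapped that of another.

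The order Cxcl12, Ackr3, Cxcr4 held in both libraries, and neighbours in it were further apart than their spread. Within replicate 1 the Cxcl12 level was 2.33 times the Ackr3 level and within replicate 2 it was 2.03 times, a log2 ratio of levels of 1.12 ± 0.14. The Cxcl12 level was 7.12 and 6.05 times that of Cxcr4, a log2 ratio of 2.71 ± 0.17. Ackr3 exceeded Cxcr4 by 3.05 and 2.98 times, a log2 ratio of 1.59 ± 0.03. Of the summed TPM of both receptors, Ackr3 took 75.3% in replicate 1 and 74.9% in replicate 2. An exact permutation test over 2 libraries cannot reach 0.05, so these ratios are given with their spread and without a p-value. RNA levels of different genes do not measure the amounts of ligand and receptor protein.

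Most Cxcl12 TPM was split almost evenly between the alpha and beta transcripts. The alpha transcript Cxcl12-202 had 36.2 TPM in replicate 1 and 31.5 TPM in replicate 2. The beta transcript Cxcl12-203 had 35.2 and 28.7 TPM. Their deposited bounds overlapped within each library, at 32.2 to 38.0 against 32.3 to 35.7 TPM in replicate 1 and at 27.8 to 33.1 against 26.2 to 29.4 TPM in replicate 2, so neither form was separated from the other as the leading one. The deposited share of the gene was 42.6% ± 0.113 for alpha and 40.1% ± 1.67 for beta.

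The gamma transcript was the smallest of the coding forms. Cxcl12-201 had 5.20 TPM in replicate 1 and 6.37 TPM in replicate 2, a share of 7.37% ± 1.78. It held a larger part of the expected counts, 15.3% ± 3.45, because its 5627 bases collect more reads per transcript than the 1878 bases of the alpha transcript. For the same reason the order of alpha and beta turned with the measure. Of the expected counts, alpha took 28.5% ± 0.392 and beta, with 3132 bases, took 45.8% ± 2.65. The remaining transcript, Cxcl12-204, is annotated as a retained intron without a coding sequence and had 8.61 and 7.21 TPM, a share of 9.94% ± 0.233.

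**Figure D2:**
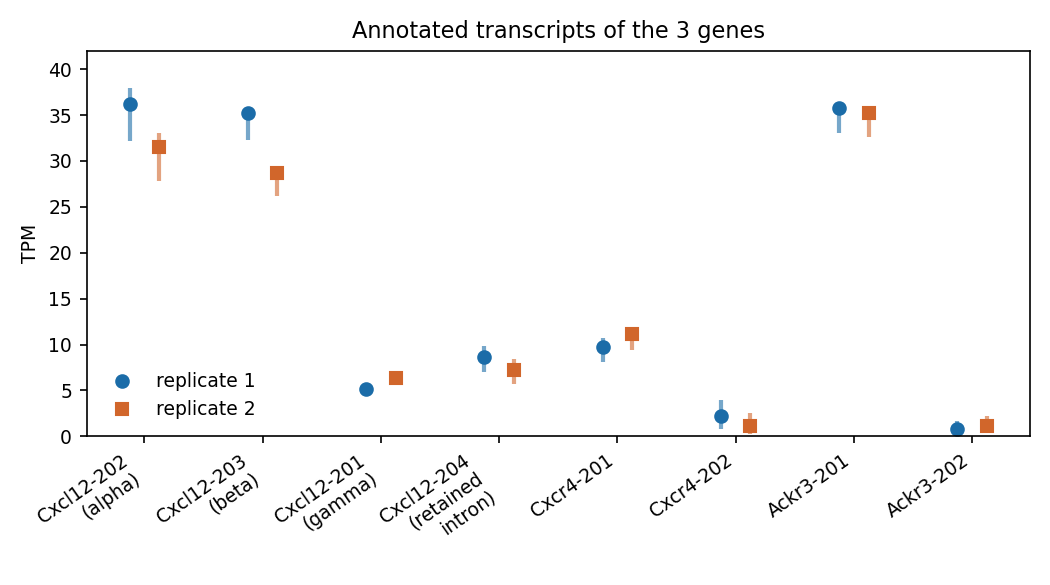
TPM of the 8 annotated transcripts of Cxcl12, Cxcr4 and Ackr3 in replicate 1 (circles) and replicate 2 (squares), with vertical lines from the lower to the upper deposited bound. The alpha and beta transcripts of Cxcl12 stood side by side at 36.2 and 35.2 TPM in replicate 1, the gamma transcript at 5.20 TPM, and Ackr3 was carried almost wholly by Ackr3-201.

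These shares rest on little sequence that is private to a form. Of the 1878 exonic bases of the alpha transcript, 1836 also belong to the retained-intron transcript, and only 39 bases at its 5′ end occur in none of the other annotated transcripts. The beta transcript has no private base and shares 3129 of its 3132 bases with the gamma transcript, from which its exon 3 to exon 4 junction separates it. The gamma transcript has 2456 private bases and the retained-intron transcript 1016. Reads in the last exon of beta fit gamma equally well, and reads in the 3′ end of alpha fit the retained intron equally well, so the estimates of these pairs depend on how such reads were divided.

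**Figure D3:**
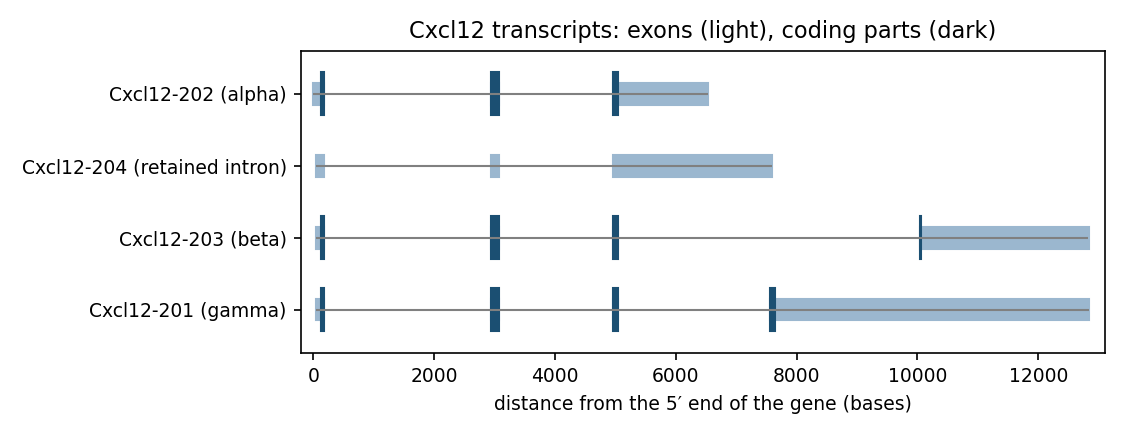
Annotated Cxcl12 transcripts drawn to scale by distance in bases from the 5′ end of the gene, with exons in light blocks, coding parts in dark blocks and introns as lines. The first 2 exons are common to all 4 transcripts apart from their 5′ starts, the alpha 3′ end lies inside the retained-intron exon, and the last exon of beta lies inside that of gamma.

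The receptor genes were each carried by 1 full-length transcript. Ackr3-201 had 35.8 TPM in replicate 1 and 35.3 TPM in replicate 2, with 97.5% ± 0.672 of the gene. Ackr3-202, a fragment annotated with an additional non-coding exon, rested on 4 and 6 counts. Cxcr4-201 had 9.73 and 11.1 TPM and a share of 81.3% in replicate 1 and 91.0% in replicate 2. The remaining Cxcr4 TPM went to Cxcr4-202, an annotated model without a 3′ end, with 31.3 and 15.8 expected counts and deposited bounds of 0.785 to 4.01 and 0.236 to 2.57 TPM, which overlap.

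The Cxcr4 transcripts also differ at the first splice junction, and their 5′ coding starts are shown because the models differ there in the coding sequence, besides the missing 3′ end of Cxcr4-202. The capitals mark 6 bases at the end of exon 1, in Cxcr4-201 only, and both sequences run from the start codon to 15 bases into exon 2.
Cxcr4-201: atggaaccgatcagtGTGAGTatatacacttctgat
Cxcr4-202: atggaaccgatcagtatatacacttctgat

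Outside this junction Cxcr4-202 has 3 private bases, so its level was set by few reads.

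Cxcl12 stood above every other chemokine ligand of the lists used, and its receptors stood above every other listed chemokine receptor. Of 37 ligand genes of the CXC, CX3C, CC and XC families, 9 were at 1 TPM or more in both libraries, and 7 had no count in either. Of 24 signalling and atypical receptor genes, 4 reached that level. Among all protein-coding genes 59.9% did. By summed TPM, Cxcl12 took 30.6% ± 2.63 of the ligand genes, and Cxcr4 and Ackr3 together took 80.5% ± 1.08 of the receptor genes.

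Of the ligands below Cxcl12, the platelet chemokine Pf4 had 52.9 and 60.3 TPM and Ppbp, also of platelets and their precursors, had 16.99 and 17.3 TPM. Ccl27a had 50.5 and 55.0 TPM. Cxcl14, a chemokine of epithelia and mesenchyme, had 32.6 and 28.0 TPM. Cx3cl1, the membrane-bound ligand made by neurons, had 4.16 ± 0.226 TPM, and Ccl25, Ccl6 and Ccl2 had means of 8.97 ± 0.0424, 1.52 ± 0.693 and 1.48 ± 0.269 TPM. Cxcl11, which shares the receptor Ackr3 with Cxcl12, had 1 count in each library and was named for that role after its value was seen. Cxcl12 was above Pf4 in both libraries, by more than the spread of either gene.

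Among the receptors, Ackr1, an atypical receptor of red cells and venules, had 4.77 and 5.88 TPM. Cx3cr1, the receptor of microglia and macrophages, had 2.10 and 2.28 TPM. These 2 and the receptors of Cxcl12 were the receptor genes at 1 TPM in both libraries. Ccr1, singled out after its values were seen, had 1.07 and 0.860 TPM, and the signalling receptors had a median of 0.0900 TPM.

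**Figure D4:**
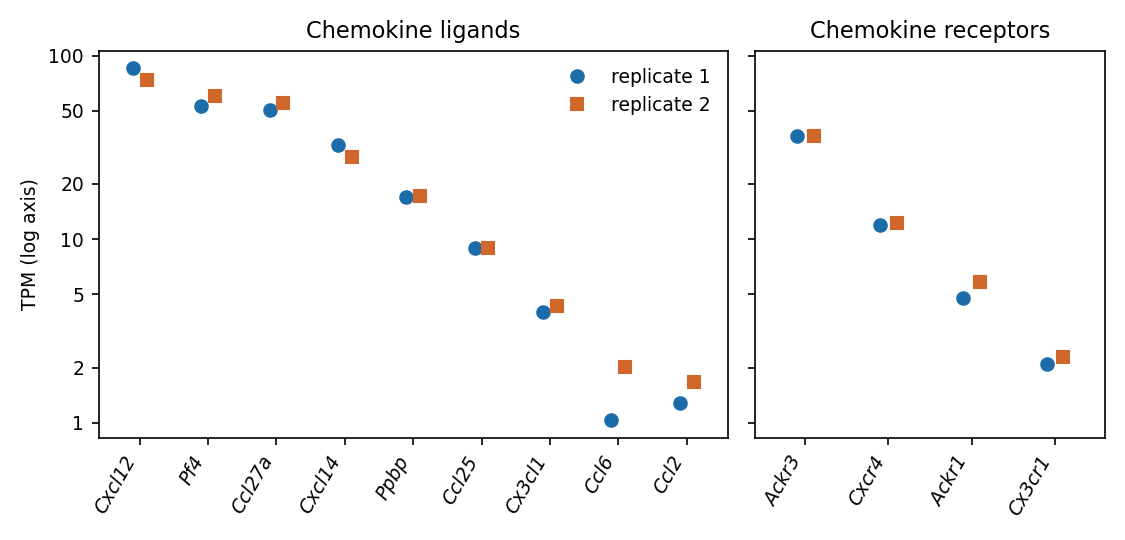
TPM on a log axis of the 9 chemokine ligand genes (left) and the 4 receptor genes (right) at 1 TPM or more in both libraries, with replicate 1 as circles and replicate 2 as squares. Cxcl12 lies at the top of the ligands, and Ackr3 and Cxcr4 lead the receptors, ahead of Ackr1 at 4.77 and 5.88 TPM.

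Other genes that act with the receptors were measured from lists of known partners. Of 6 genes for other ligands or partners of the ligand, 5 were at 1 TPM or more in both libraries, against 59.9% of all protein-coding genes. Mif, a cytokine that also binds CXCR4, had 1829 ± 26.4 TPM and Hmgb1, a nuclear protein that forms a complex with CXCL12 outside the cell, had 1330.2 ± 12.9 TPM. The genes of peptides that ACKR3 takes up had low RNA levels, and the peptides themselves were not measured. Penk (enkephalins) had 6.69 ± 0.898, Adm (adrenomedullin) 2.24 ± 0.700 and Pdyn (dynorphins), named after its value was seen, 2.20 ± 0.205 TPM.

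All 17 genes for G proteins, receptor kinases, arrestins and downstream kinases were at 1 TPM or more in both libraries, with a median of 65.1 TPM. Of all protein-coding genes, 59.9% reached that threshold, so this count says little about the pathway. The G protein subunit genes Gnb1, Gnb2 and Gnai2 had 618 ± 1.93, 367 ± 21.4 and 347 ± 5.31 TPM, and Rac1, a GTPase of cell migration, had 316 ± 2.75 TPM. The arrestin genes were unequal, with Arrb2 at 24.4 and 19.3 TPM and Arrb1 at 3.88 and 4.20 TPM. Of the kinases that phosphorylate active receptors, Grk6 had 43.9 ± 1.33 TPM, Grk2 13.0 ± 1.44, Grk5 3.03 ± 0.728 and Grk3 2.18 ± 0.431 TPM. These arrestin and kinase genes were named for their roles after their values were seen.

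Of 11 genes that cleave CXCL12 or make and carry heparan sulfate, which holds it at the cell surface, 9 were at 1 TPM or more in both libraries. Among all protein-coding genes 59.9% were. Ext2, a heparan sulfate polymerase gene, had 59.0 ± 2.63 TPM. The proteinase genes Mmp2 and Mmp14 had 55.2 ± 3.55 and 53.3 ± 0.884 TPM, and the syndecan gene Sdc1 had 45.0 ± 2.45 TPM. Dpp4, whose product trims the N-terminus of CXCL12, had 1.12 and 0.610 TPM and was singled out for that role after its value was seen. All 7 genes known to regulate Cxcl12, Cxcr4 or Ackr3 in other settings reached 1 TPM in both libraries, as did 59.9% of all protein-coding genes. The highest were the hypoxia factor Hif1a at 100.8 ± 3.82 TPM, Nrf1 at 59.3 ± 2.28, Yy1 at 19.5 ± 0.849 and the mesenchymal factor Foxc2 at 12.1 ± 0.191 TPM.

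With library-size scaling, the ratio between the pools lay farther from 0 for Cxcl12 than for its receptors, an order that spike-in scaling reversed. Spike-in scaling moved the median of all genes too, and relative to that median Cxcl12 lay farthest from 0 with either scaling. After scaling for library size, the Cxcl12 count in replicate 2 was 0.860 times that in replicate 1, a log2 ratio of -0.22 with a 95% interval of -0.28 to -0.15 that covers counting error only. The log2 ratio was 0.07 for Cxcr4 (-0.16 to 0.29) and -0.06 for Ackr3 (-0.16 to 0.03), and both intervals hold 0. With 1 library on each side these values compare 2 libraries and have no replicate check. None of the 3 genes lay past 1.5-fold. Of 17178 genes with 10 counts in at least 1 library, 4.79% were that much higher in replicate 2 and 5.87% that much lower. Of these 1831 genes past 1.5-fold, 192 had 100 counts in at least 1 library, while 12351 genes had a mean of 100 counts or more. A ratio within 1.5-fold was thus the rule at the counts of the 3 genes. The size of the Cxcl12 ratio was reached by 31.6% of the 17178 genes at any count, and by 2.98% of the 3183 genes with a mean count within 2-fold of its own. For Cxcr4 and Ackr3 the shares of genes of like count at least as far apart were 74.8% and 55.1%.

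Mesenchymal and muscle markers mostly had ratios below 0 between the pools with library-size scaling. Neuron, motor neuron, sensory ganglion and neural crest markers had ratios above 0. Neural progenitor, endothelial and blood markers lay on both sides. Most of these ratios were within 1.5-fold. All 8 meningeal and mesenchymal markers had lower scaled counts in replicate 2, at a median log2 ratio of -0.25, against a median of -0.00158 over all genes tested. Their summed level was 685 TPM in replicate 1 and 610.1 TPM in replicate 2, none was at 0, and 0 of the 8 lay past 1.5-fold. Col3a1, a fibrillar collagen gene and the highest of the list, had 308 and 275 TPM, and Prrx1, a factor of limb and body wall mesenchyme, had 30.2 and 24.2 TPM. Of 6 skeletal muscle markers 5 were lower in replicate 2, at a median of -0.31, and 1 of the 6, the myogenic factor gene Myod1, was past 1.5-fold with 11.7 and 7.94 TPM. Prrx1 and Myod1 were singled out after their values were seen.

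The 6 motor neuron markers went the other way, at a median log2 ratio of 0.46 and summed levels of 151 and 202 TPM. Past 1.5-fold were 2 of the 6, Mnx1 with 3.46 and 6.02 TPM and Chat with 1.48 and 2.57 TPM, named after their values were seen. Isl1, a LIM homeobox gene of motor and sensory neurons and the highest of the list, had 86.0 and 109 TPM. All 6 sensory ganglion and neural crest markers and all 6 neuron markers were also higher in replicate 2, at medians of 0.29 and 0.13, with 0 of 6 past 1.5-fold in each. The median absolute log2 ratio was 0.123 over all genes tested and 0.0895 over the 12351 with a mean of 100 counts or more. The lowest neuron marker count was 3270, for Elavl3 in replicate 1, and no median was taken over genes of like count. The 6 neural progenitor markers had a median of 0.04, with 4 above 0 and 2 below. The 6 endothelial markers had a median of -0.02, with 3 on each side of 0, and the 6 blood and macrophage markers a median of -0.01. The Cxcl12 ratio was below 0 with library-size scaling, as were 50.4% of all genes tested, all 8 mesenchymal markers and 5 of 6 muscle markers. The part of either tissue in the result was not tested. Scaled by the spike-in RNAs instead, the ratios of all genes had a median of 0.20 (log2): Cxcl12 then had a ratio of -0.02, Ackr3 changed sign to 0.14, Cxcr4 had 0.26, and 3 of the 8 mesenchymal markers turned positive. Relative to the median of all genes, the log2 ratio of Cxcl12 was -0.21 with the spike-ins and -0.22 without. That of Cxcr4 was 0.07 and that of Ackr3 was -0.06 with either scaling.

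**Figure D5:**
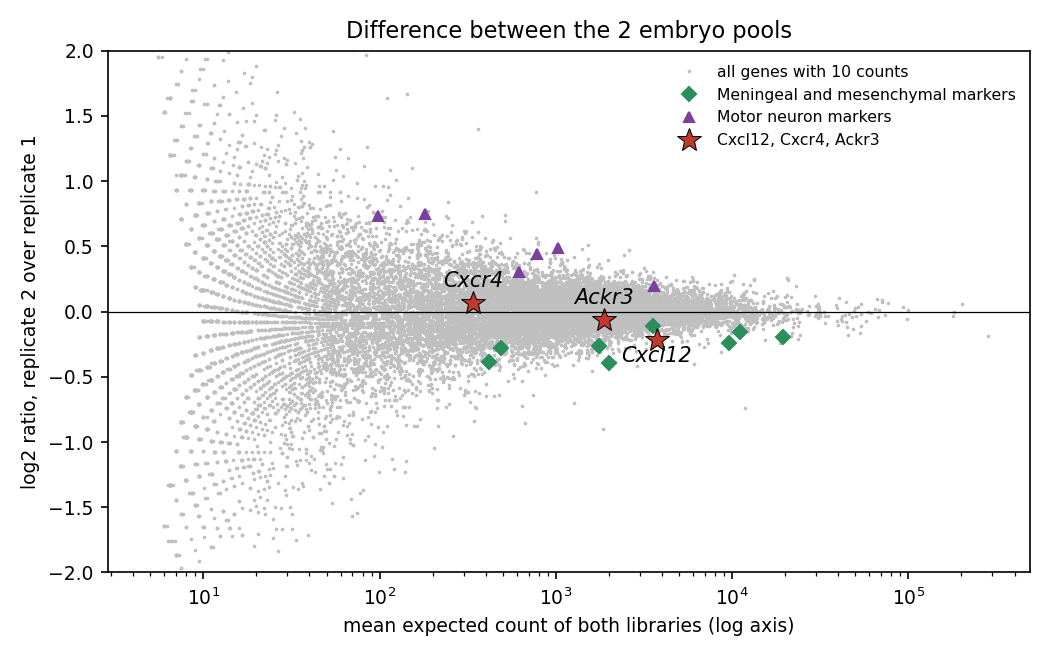
Log2 ratio of scaled counts, replicate 2 over replicate 1, against the mean expected count (log axis) for 17178 genes with 10 counts in at least 1 library (grey), with Cxcl12, Cxcr4 and Ackr3 as stars, meningeal and mesenchymal markers as diamonds and motor neuron markers as triangles; 141 genes lie outside the plotted range. With library-size scaling Cxcl12 lies at -0.22 and all diamonds lie below 0, as do 50.4% of the 17178 genes, while Cxcr4 and Ackr3 lie near 0. With spike-in scaling Cxcl12 lies at -0.02, Ackr3 changes sign and 3 diamonds turn positive.

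The estimates of the Cxcl12 transcripts did not all follow the gene between the 2 libraries. Beta shares 3129 of its 3132 bases with gamma, so their ratios depend on how shared reads were divided, which was not tested. In scaled counts, the log2 ratio of replicate 2 to replicate 1 was -0.25 for alpha, -0.34 for beta, -0.30 for the retained intron and 0.25 for gamma. The deposited TPM bounds of the 2 libraries did not overlap for beta, at 32.3 to 35.7 and 26.2 to 29.4 TPM. They overlapped for gamma, at 4.50 to 5.68 and 5.55 to 6.84 TPM, as they did for alpha and the retained intron. Of the TPM of the coding forms, gamma took 6.79% in replicate 1 and 9.57% in replicate 2 while alpha took 47.3% in each. With 2 libraries of the same tissue, no likeness of pattern with other genes across conditions could be computed.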

How the data were processed

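Total RNA longer than 200 bases (10 ng per library, spike-ins added) was measured in 2 libraries. The labels call the assay total RNA-seq and link a Smart-seq protocol; which was used could not be settled. Expected counts (reads assigned by a model to genes and transcripts), TPM values, their lower and upper bounds (of unstated level) and the percent of each transcript in its gene were deposited by the authors, on mm10 with GENCODE M4 per the deposited file descriptions. No source used here names the aligner or quantifier. TPM was scaled over all entries, including spike-ins (13.2% and 11.8% of TPM).

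Gene names, exons and sequences came from GENCODE M21 (GRCm38, the build of mm10), joined without version; 42462 of 43346 gene identifiers matched, and all 8 member transcripts had the same length in M21. The 26248 numbered entries were left out. After rounding of expected counts to integers, TMM factors (0.996 and 1.004, spike-ins included) and log2 ratios (prior count 2) came from edgeR 4.0.16 in R 4.3.3. DESeq2 1.42.0 size factors, spike-in totals, posterior mean TPM and other thresholds were alternatives. Intervals of ratios are exact conditional binomial (95%) and cover counting error only; PCR copies could not be told from separate molecules. The ratio step was tested on simulated counts that held counting error only, with 200 genes changed 3-fold. Of these, 100% were recovered, and 0.00823% of unchanged genes with a mean of 100 counts or more passed 1.5-fold. The simulation does not cover spread between pools or ratios as small as those of the members. The labels number the pools as biological replicates; no p-value was computed.

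The members and 16 lists of genes were chosen with earlier results of these data known. Named were the members, up to 4 of the highest genes of each list and every chemokine gene at 1 TPM or more in both libraries; exceptions are marked. Python 3.11.15 with numpy 2.4.6, scipy 1.17.1, pandas 2.3.3 and matplotlib 3.10.9 did the remaining steps.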

Additional observations from a re-analysis of the deposited data

How the results depend on the processing

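Of 132 alternative values, 118 stayed within the spread of the replicates, the counting interval or 1.5 times the count, and 14 moved beyond it. By this rule a level, ratio or share from 1 library alone could not move, because each of 2 values lies within their SD of the mean. Counts of detected genes had the wide margin of 1.5 times. The tally is therefore no measure of robustness. Cxcl12, Ackr3 and Cxcr4 kept this order with posterior mean TPM. The order in each library alone is the result given above. TPM over genes only could not change it, since all genes of a library are divided by the same total. Rescaling TPM over genes only gave 90.9 TPM for Cxcl12, 13.8 for Cxcr4 and 41.7 for Ackr3, since spike-ins no longer took a share. Posterior mean TPM gave 11.9 for Cxcr4 and 35.5 for Ackr3. Without replicate 1 or without replicate 2, the levels ranged from 73.8 to 85.2 TPM for Cxcl12, 11.97 to 12.2 for Cxcr4 and 36.4 to 36.6 for Ackr3. With counts per annotated length the log2 ratio of Ackr3 to Cxcr4 was 1.63. Spike-in scaling moved the log2 ratio between the pools to -0.0176 for Cxcl12 and 0.14 for Ackr3. Genes past 1.5-fold between the pools numbered 1831 of 17178, 5189 with no count filter and 192 at 100 counts in at least 1 library. A mean of 100 counts or more was held by 12351 genes. With spike-in scaling 1390 of 2054 were higher in replicate 2, against 822 of 1831. By expected counts, Cxcl12-202 took 28.5% and Ackr3-201 99.7% of its gene. Of the CC and XC ligands 4 reached 1 TPM, 7 reached 0.5 TPM and 2 reached 2 TPM in both libraries. No paired analysis was possible because there was 1 group. The number of libraries and the 320 and 356 counts of Cxcr4 limit what could be resolved.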

Other observations

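The gene-level TPM of Cxcr4 was computed over both of its models. The deposited effective length of the gene was 1537 bases in replicate 1 and 1625 in replicate 2, with 18.7% and 8.97% of the gene on the shorter Cxcr4-202. If every Cxcr4 count is placed on the full-length Cxcr4-201, the levels become 10.8 and 11.6 TPM in place of 11.97 and 12.2 TPM. The same step gives Ackr3 35.9 and 35.4 TPM, so Ackr3 stays above Cxcr4 in both libraries.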
